A study of Mus musculus with 6 samples.

Results

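The interferon-stimulated genes described here are 35 genes out of the 55450 that each library table lists, named with earlier results of these data known and matched by GENCODE M21 symbol. All 35 were present in the series table of 17500 genes, and all 35 passed the filter on low counts. They are 5 regulators (Irf1, Irf7, Irf9, Stat2, Usp18), 5 nucleic acid sensors and sensor cofactors (Ifih1, Ddx58, Dhx58, Zbp1, Trim25), 22 effectors and 3 guanylate-binding proteins (Gbp2, Gbp3, Gbp7). The samples were long-term hematopoietic stem cells (LT-HSCs) of wild-type male C57/Bl6 mice aged 22 to 24 months, gated as Lin-, Sca1+, cKit+, CD48- and CD150+. The CD61High group was the top 10% of these cells by surface CD61 and the CD61Low group the bottom 10%, where CD61 is integrin beta 3, encoded by Itgb3. Each library was made from 5000 sorted cells, and the titles give 1 CD61High and 1 CD61Low library for each of 3 mice, although the protocol speaks of pools. The labels name no treatment, and all mice were old, so the comparison is between both ends of the CD61 range within old stem cells.

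Type I interferons bind the receptor pair Ifnar1 and Ifnar2, and the kinases Jak1 and Tyk2 then act on Stat proteins, Stat2 among them. Stat2 and Irf9 are subunits of the complex ISGF3, which binds interferon-stimulated response elements (ISREs) in promoters, whereas type II interferon acts through gamma-activated sites (GAS). Many of the induced genes block steps of viral replication, and blood stem cells are known to hold a basal set of them and to leave quiescence for a time when exposed to interferon.

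Total counts on genes were 21354130 to 25019004 in the CD61High libraries and 24210825 to 26398090 in the CD61Low libraries. Markers of mature cells, which the gates should remove, were unevenly present, and those of mouse 2 were the highest. Of all counts, the 20 neutrophil markers made up 0.550%, 7.44% and 0.0374% in CD61High of mice 1, 2 and 3, and 2.21%, 12.1% and 0.194% in CD61Low. The 12 stem cell markers, such as Hlf, Mecom and Procr, were all present and took 0.228% to 0.495% in CD61High and 0.149% to 0.681% in CD61Low, lowest in both libraries of mouse 2. For that reason counts over the members are also given without mouse 2.

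Most members stood lower in CD61High than in CD61Low, by small amounts, and none passed the test over all genes. In edgeR without a mouse term, 0 of 35 members were called at an adjusted p under 0.05, as were 0 of the 15610 genes tested (0.0%). At an unadjusted p under 0.05 there were 3 members (8.57%), against 6.55% of all genes tested: Ifit2 was higher (3.56% of all genes) and Ifit3 and Mx2 were lower (3.0%). When the mouse was added as a block, 0 members and 40 genes in all (0.256%) were called by edgeR. There 10 members (28.6%) were under an unadjusted p of 0.05, against 20.8% of all genes, with 2 higher (8.01% of all genes) and 8 lower (12.8%). DESeq2 with the block called Samhd1, Parp14 and Ifit3 as lower in CD61High, which is 3 of 35 members (8.57%) beside 10.0% of all genes in either direction, 7.11% lower and 2.92% higher. DESeq2 without the block called 0 members and 1.52% of all genes, and limma voom called 0 members without the block and 0 with it, where it called 2.13% of all genes.

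The direction was shared more than the size. In all 3 mice, 19 members were lower in CD61High (54.3%), against 24.7% of all genes tested, and 4 were higher (11.4%), against 20.6%. The 19 are Irf1, Irf9, Stat2, Zbp1, Trim25, Ifit1, Ifit3, Ifit3b, Isg15, Mx2, Oas3, Oasl2, Rsad2, Ifi27, Parp9, Parp14, Samhd1, Gbp2 and Gbp3, and the 4 are Ifih1, Ifit2, Oas1a and Xaf1. Counts were scaled to the library total and adjusted by TMM factors, in mouse 2 0.926 for CD61High and 0.767 for CD61Low. For Irf1, Irf9, Ifit1, Oas3, Oasl2, Parp9, Gbp2 and Gbp3, the lower level in CD61High of mouse 2 rests on these factors. In mice 1 and 3 alone, 23 members were lower in both (65.7%), against 35.8% of all genes, and 5 were higher (14.3%), against 34.8%. The median log2 difference over the members was -0.18, -0.24 and -0.26 in mice 1, 2 and 3, with 25, 26 and 28 of the 35 below 0. Of the 15610 genes tested, 7796, 8618 and 7967 were below 0, and their median was -0.07 in mouse 2 and -0.01 in mouse 3. In edgeR the median log2 fold change was -0.33 over the members and -0.05 over all genes tested, or -0.30 and -0.02 with the block. These medians and counts describe the list, and no test was made of the list as a whole.

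**Figure D1:**
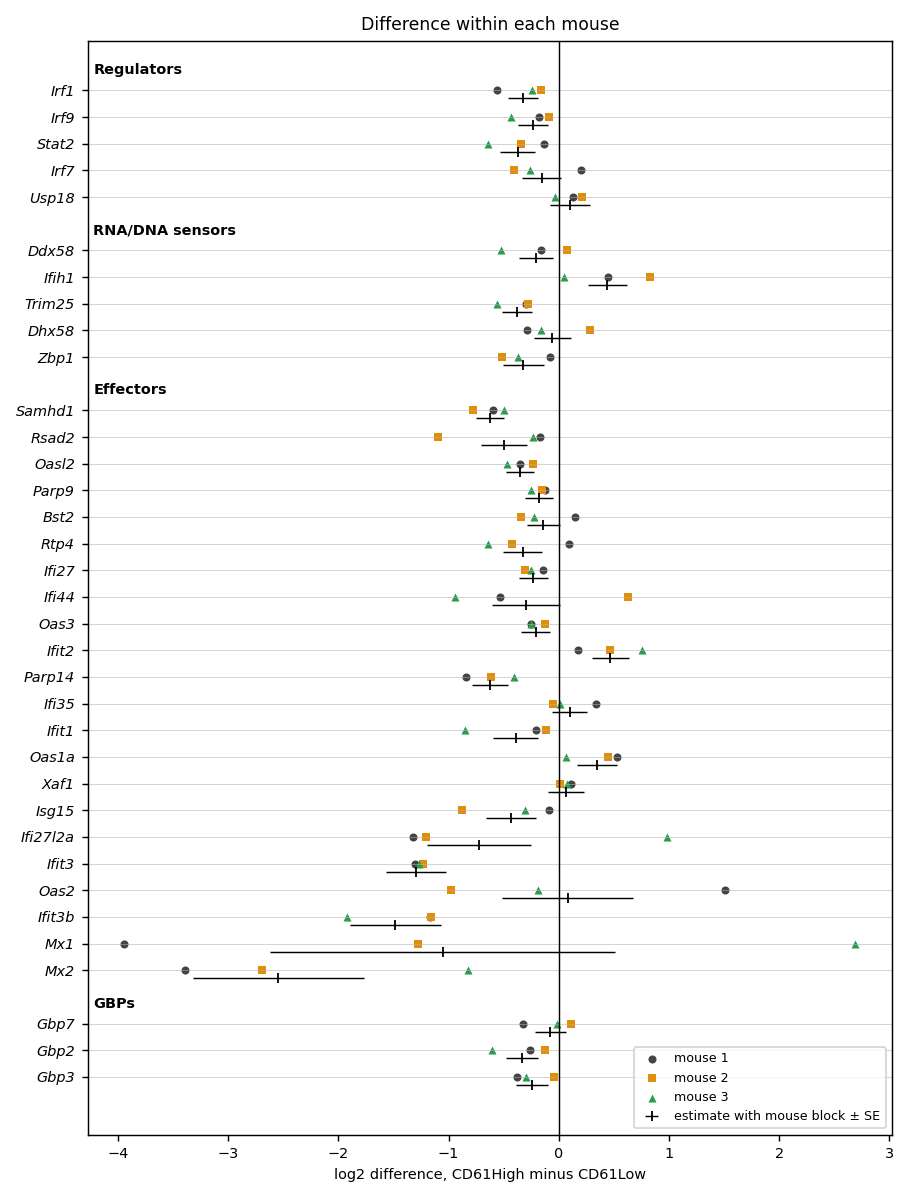
Log2 difference, CD61High minus CD61Low, of log2 CPM in each of the 3 mice (points) for the 35 members, grouped as regulators, sensors, effectors and GBPs, with a line at 0. Most points lie left of 0, and 19 members have all 3 points there, whereas Ifih1, Ifit2, Oas1a and Xaf1 have all 3 to the right.

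By class, 3 of 5 regulators, 2 of 5 sensors, 12 of 22 effectors and 2 of 3 guanylate-binding proteins were lower in CD61High in all 3 mice. The median log2 fold change in edgeR was -0.23 for the regulators, -0.23 for the sensors, -0.38 for the effectors and -0.26 for the guanylate-binding proteins. The effector median was 0.032 without the block and without the CD61Low library of mouse 2, a fit that keeps the CD61High library of mouse 2 unmatched. It was -0.28 with the block and without both libraries of mouse 2. Within mice 1, 2 and 3, the median effector difference was -0.19, -0.39 and -0.25. Levels are given in CPM, which are counts scaled to a common library total and adjusted by TMM. Summed over the 35 members, the level was 1741, 1771 and 1596 CPM in CD61High of mice 1, 2 and 3, and 2003, 2208 and 1990 CPM in CD61Low. All 3 CD61High sums lay below all 3 CD61Low sums. As shares of counts, without TMM, the members took 0.190%, 0.164% and 0.173% in CD61High, and 0.215%, 0.169% and 0.221% in CD61Low. These shares were lower in CD61High of each mouse, but the groups overlapped. In sorted bulk samples, fewer cells that carry a transcript and less transcript per cell cannot be told apart.

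Levels can be compared between genes only per length of exon. As the mean over the 6 libraries, Bst2, which tethers budding virions to the cell surface, had the highest mean of the members at 73.0 CPM per kilobase. Gbp2 followed at 41.5, Ifi27 at 39.5 and Irf1 at 34.2 CPM per kilobase. Their ranges over the 6 libraries were 55.4 to 84.3 for Bst2, 28.9 to 57.3 for Gbp2 and 27.6 to 62.2 for Ifi27, so Gbp2 and Ifi27 cannot be placed in order, and both ranges overlap the lower end of that of Bst2. Ifi27l2a came next, with a mean of 30.3 and a range of 1.20 to 108 CPM per kilobase, and in CD61Low of mouse 2 it lay above every value of Bst2. At the lower end were Ifit3 at 2.63, Ifit3b at 0.891, Oas2 at 0.412, Mx1 at 0.306 and Mx2 at 0.220 CPM per kilobase. The order of levels therefore runs across the classes, with effectors at both ends.

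**Figure D2:**
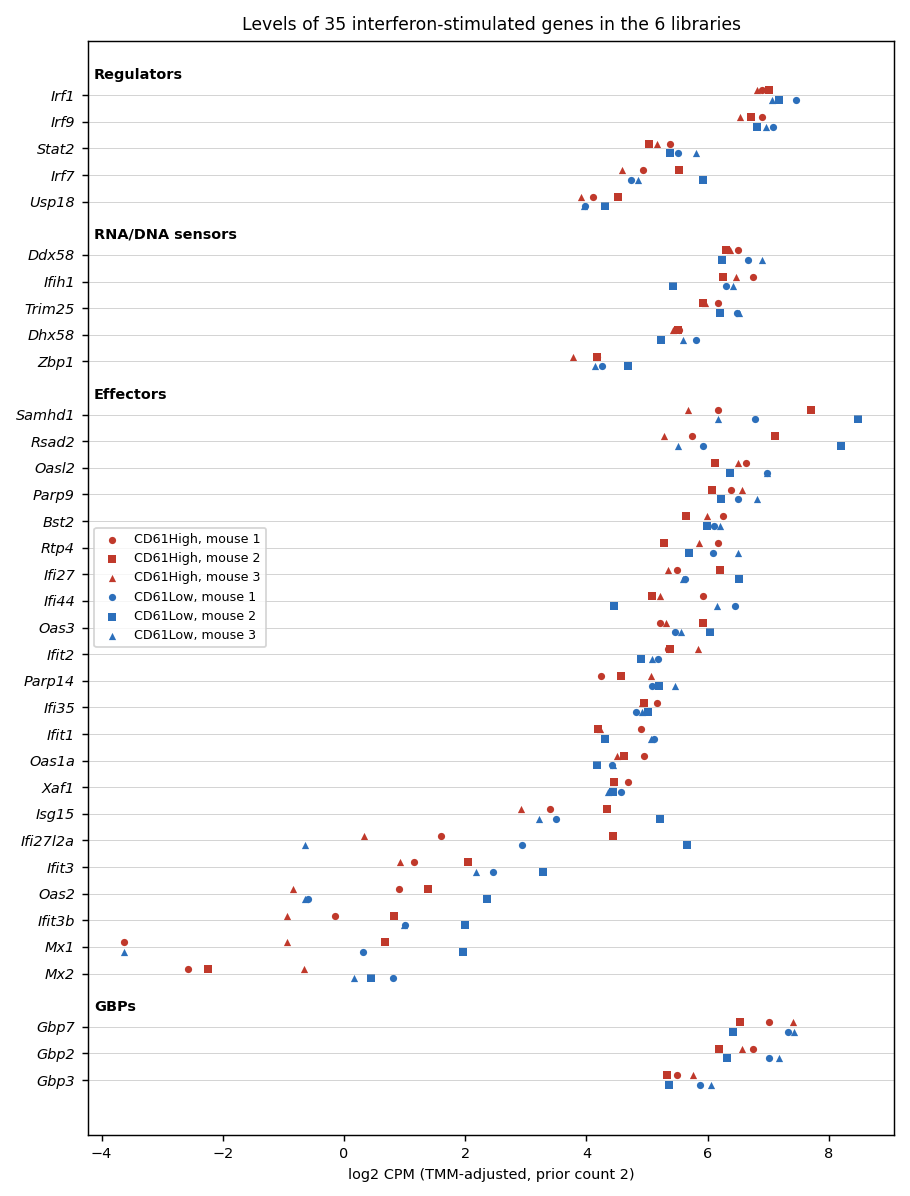
Level of each of the 35 members in the 6 libraries, as log2 of TMM-adjusted CPM with a prior count of 2, CD61High in red above CD61Low in blue and one symbol per mouse. Effectors span the whole axis, from Samhd1 and Rsad2 of mouse 2 on the right to Mx1 and Mx2 on the left, and for Samhd1, Rsad2, Isg15 and Ifi27l2a both libraries of mouse 2 lie right of the other 4.

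Among the regulators, Irf1 (ENSMUSG00000018899.16, GRCm38 chromosome 11, 53770014 to 53778374), a transcription factor induced by both interferon types, separated the groups. It stood at 119, 129 and 113 CPM in CD61High of mice 1, 2 and 3, and at 177, 144 and 134 CPM in CD61Low. All CD61High values lay below all CD61Low values, by a margin that was narrow in mouse 2, and the log2 fold change in edgeR was -0.33 (SE 0.16, adjusted p = 0.760). In mouse 2 the raw counts of Irf1 were 2961 in CD61High and 2918 in CD61Low, from totals of 24799800 and 26398090. The lower level in CD61High of that mouse thus rests on the TMM factors. Irf1 was 1 of 6 members whose groups did not overlap with CD61High below (17.1%), against 5.71% of all genes tested, and 2 members did not overlap with CD61High above (5.71%), against 8.62%. The other 5 below were Trim25, Ifit3, Ifit3b, Mx2 and Parp14, and those above were Ifit2 and Oas1a. Overlap was judged on TMM-adjusted levels. Scaled to library totals only, the groups overlap for Irf1, Trim25, Parp14, Ifit2 and Oas1a.

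The ISGF3 subunits pointed the same way without separating. Stat2 had 41.5, 32.7 and 35.7 CPM in CD61High and 45.6, 41.5 and 55.7 CPM in CD61Low, lower in each mouse with ranges that just touch. For Stat2 edgeR gave a log2 fold change of -0.38 (SE 0.18, adjusted p = 0.760). Irf9, its DNA-binding partner, had 119, 105 and 92.8 CPM in CD61High and 135, 112 and 125 CPM in CD61Low, with a log2 fold change of -0.23 (SE 0.16, edgeR adjusted p = 0.862). Both were lower in 3 of 3 mice, with overlapping groups.

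Irf7, the factor that amplifies type I interferon production, had 30.5, 45.8 and 24.0 CPM in CD61High and 26.6, 60.7 and 28.8 CPM in CD61Low. Both libraries of mouse 2 were the highest, and mouse 1 went the other way from mice 2 and 3. The log2 fold change was -0.21 (SE 0.41, edgeR adjusted p = 0.940) and turned to 0.28 without the CD61Low library of mouse 2, which leaves its CD61High library unmatched. With the block it was -0.16 (SE 0.17, edgeR adjusted p = 0.650), and -0.04 with the block and without both libraries of mouse 2. Usp18, which removes Isg15 from proteins and restrains the type I receptor, had 17.2, 22.9 and 15.01 CPM in CD61High and 15.7, 19.7 and 15.4 CPM in CD61Low. It was the regulator with a positive estimate, 0.12 (SE 0.24, edgeR adjusted p = 0.942), which was -0.072 without the CD61High library of mouse 2.

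Among the sensors, Ifih1 was higher, and Trim25 and Zbp1 were lower, in CD61High of each mouse. Ifih1 (ENSMUSG00000026896.14, chromosome 2, 62595798 to 62646255) encodes Mda5, a helicase that detects long double-stranded RNA. It had 108, 76.2 and 88.7 CPM in CD61High of mice 1, 2 and 3, and 78.8, 43.0 and 85.7 CPM in CD61Low. CD61High was higher in each mouse, barely so in mouse 3 (log2 differences 0.45, 0.82 and 0.05), and the groups overlapped. The log2 fold change was 0.39 (SE 0.30, edgeR adjusted p = 0.881), or 0.44 (SE 0.18, adjusted p = 0.228) with the block.

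Trim25 (ENSMUSG00000000275.16, chromosome 11, 88999376 to 89020293), a ubiquitin ligase that takes part in Rig-I signalling, had 72.2, 60.3 and 62.0 CPM in CD61High and 89.0, 73.4 and 91.4 CPM in CD61Low. The groups did not overlap, and CD61High was lower by 0.30, 0.28 and 0.56 on the log2 scale in mice 1, 2 and 3. The log2 fold change was -0.38 (SE 0.16, edgeR adjusted p = 0.752), or -0.38 (SE 0.14, adjusted p = 0.189) with the block.

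Ddx58, which encodes Rig-I, the sensor of short and 5′-triphosphate RNA, had 90.2, 79.3 and 82.4 CPM in CD61High and 101, 75.1 and 119 CPM in CD61Low. CD61High was lower in mice 1 and 3 and slightly higher in mouse 2, with a log2 fold change of -0.23 (SE 0.20, edgeR adjusted p = 0.909). Dhx58, the relative Lgp2 that modulates both helicases, had 46.1, 45.4 and 43.2 CPM in CD61High and 56.2, 37.4 and 48.3 CPM in CD61Low. Its estimate of -0.08 (SE 0.19, edgeR adjusted p = 0.946) turned to 0.055 without the CD61Low library of mouse 1. Zbp1, a sensor of Z-form nucleic acid that can start necroptosis, had 17.9, 18.0 and 13.6 CPM in CD61High and 19.0, 25.7 and 17.6 CPM in CD61Low. It was lower in each mouse, with a log2 fold change of -0.33 (SE 0.24, edgeR adjusted p = 0.878) and overlapping groups.

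The Ifit effectors bind viral RNA or interact with translation factors, and their genes form a cluster on chromosome 19. Ifit3 (ENSMUSG00000074896.3, 34583531 to 34588731) had 2.15, 4.05 and 1.81 CPM in CD61High of mice 1, 2 and 3, from 50, 93 and 49 counts. In CD61Low it had 5.43, 9.64 and 4.46 CPM, from 149, 195 and 120 counts. The groups did not overlap, and the within-mouse log2 differences of -1.31, -1.23 and -1.27 were nearly equal. In edgeR without the block the log2 fold change was -1.28 (SE 0.49, adjusted p = 0.732), and with the block -1.29 (SE 0.28, adjusted p = 0.0791). DESeq2 with the block called it, at -1.32 (SE 0.37, adjusted p = 0.00639), whereas limma voom with the block gave an adjusted p of 0.0590.

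Ifit3b (ENSMUSG00000062488.9, 34607970 to 34613401) is a near copy of Ifit3 and gave the same picture at lower counts. It had 0.816, 1.70 and 0.442 CPM in CD61High and 1.93, 3.90 and 1.90 CPM in CD61Low, again without overlap. The estimate in edgeR was -1.38 (SE 0.63, adjusted p = 0.757). Of the distinct 50-base stretches of its transcripts, 44.5% also occur in Ifit3, and 51.2% of those of Ifit3 occur in Ifit3b. Reads that match both genes equally were left out as multimapping, so the levels of both rest on their other stretches and are uncertain. Whether the agreement of the 2 genes is independent was not tested.

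Ifit2 (ENSMUSG00000045932.12, 34550694 to 34576419), next to Ifit3, went the other way. It had 40.8, 41.3 and 57.0 CPM in CD61High and 36.1, 29.9 and 33.7 CPM in CD61Low, with CD61High above CD61Low without overlap. The estimate in edgeR was 0.48 (SE 0.20, adjusted p = 0.752). Ifit1 (34640871 to 34650009) had 29.9, 18.2 and 18.5 CPM in CD61High and 34.6, 19.7 and 33.5 CPM in CD61Low. It was lower in each mouse, mostly in mouse 3, with a log2 fold change of -0.40 (SE 0.32, edgeR adjusted p = 0.894).

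The promoter windows of these neighbours and of Ifih1 are shown because Ifit3 and Ifit3b were the lower pair while Ifit2 and Ifih1 were higher in each mouse. Each window runs from 250 bases before to 50 bases after the RefSeq transcript start on GRCm38.p6, written 5′ to 3′ on the gene's strand. Capitals mark matches to the ISRE core (GAAA, any 2 bases, GAAA) or the GAS core (TTC, any 3 bases, GAA) on either strand.
Ifit3, chr19:34583279-34583578, plus strand, ISRE cores in capitals: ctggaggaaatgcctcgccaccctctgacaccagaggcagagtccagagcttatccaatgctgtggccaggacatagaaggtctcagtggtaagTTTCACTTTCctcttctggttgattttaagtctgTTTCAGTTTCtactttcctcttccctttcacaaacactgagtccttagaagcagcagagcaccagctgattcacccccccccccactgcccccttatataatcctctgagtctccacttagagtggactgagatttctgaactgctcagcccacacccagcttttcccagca
Ifit3b, chr19:34607707-34608006, plus strand, ISRE cores in capitals: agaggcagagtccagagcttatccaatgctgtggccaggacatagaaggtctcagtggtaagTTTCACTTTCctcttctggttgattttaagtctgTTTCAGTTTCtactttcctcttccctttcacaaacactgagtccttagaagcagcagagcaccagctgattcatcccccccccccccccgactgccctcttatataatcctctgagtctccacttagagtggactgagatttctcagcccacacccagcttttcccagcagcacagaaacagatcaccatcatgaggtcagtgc
Ifit2, chr19:34550444-34550743, plus strand, GAS core in capitals: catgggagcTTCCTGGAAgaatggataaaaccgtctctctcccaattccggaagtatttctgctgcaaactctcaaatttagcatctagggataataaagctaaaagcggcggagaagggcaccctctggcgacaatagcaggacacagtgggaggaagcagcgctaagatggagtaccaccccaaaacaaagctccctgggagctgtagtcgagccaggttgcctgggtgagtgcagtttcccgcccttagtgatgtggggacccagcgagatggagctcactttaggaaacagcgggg
Ifih1, chr2:62646206-62646505, minus strand, ISRE core in capitals: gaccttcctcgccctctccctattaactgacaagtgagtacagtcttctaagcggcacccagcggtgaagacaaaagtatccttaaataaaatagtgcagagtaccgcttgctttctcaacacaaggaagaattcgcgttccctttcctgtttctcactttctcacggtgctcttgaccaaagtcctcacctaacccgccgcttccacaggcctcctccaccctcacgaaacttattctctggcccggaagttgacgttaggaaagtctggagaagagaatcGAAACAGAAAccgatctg
The Ifit3 and Ifit3b windows hold 2 ISRE cores each, in the same surrounding letters, on the reverse strand. The Ifih1 window holds 1, after the start, and the Ifit2 window shown, the first of 2 for that gene, holds 1 GAS core, with 0 ISRE cores. Of the 24 members with a RefSeq window, 14 held the ISRE core in at least 1 window (58.3%), against 3.99% of all 27025 genes with a window of that length, and 7 held the GAS core (29.2%), against 9.55%. Members lower in CD61High in each mouse are found both with the ISRE core (Ifit1, Ifit3, Stat2, Rsad2, Gbp2) and without it (Irf1, Trim25, Samhd1, Irf9). Those higher in each mouse are likewise found with it (Ifih1, Oas1a) and without it (Ifit2, Xaf1). A match is a stretch of letters and not a measured binding site, and a window without a match says nothing of sites elsewhere.

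Samhd1 (ENSMUSG00000027639.16, chromosome 2, 157097533 to 157135265) hydrolyses deoxynucleotides and so limits reverse transcription. It stood at 72.3, 208 and 51.2 CPM in CD61High of mice 1, 2 and 3, and at 109, 356 and 72.1 CPM in CD61Low. CD61High was lower in each mouse, by 0.60, 0.78 and 0.49 on the log2 scale, but both libraries of mouse 2 lay far above the other 4, and the groups overlapped. Without the block the log2 fold change was -0.70 (SE 0.78, edgeR adjusted p = 0.937), and it turned to 0.28 when the CD61Low library of mouse 2 was left out. With the block it was -0.62 (SE 0.13, edgeR adjusted p = 0.0775), and DESeq2 with the block called it at -0.65 (SE 0.16, adjusted p = 0.000984). With the block and without both libraries of mouse 2, it was -0.56 (SE 0.13, edgeR adjusted p = 0.0685).

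Parp14 (ENSMUSG00000034422.14, chromosome 16, 35832874 to 35871544), an ADP-ribosyltransferase of the macrodomain family, had 18.9, 23.8 and 33.3 CPM in CD61High and 33.9, 36.4 and 44.2 CPM in CD61Low. The highest CD61High value, in mouse 3, lay just under the lowest CD61Low value, in mouse 1. For Parp14 edgeR estimated a log2 fold change of -0.59 (SE 0.26, adjusted p = 0.752), or -0.62 (SE 0.16, adjusted p = 0.112) with the block, and DESeq2 with the block called it (adjusted p = 0.0230). Its neighbour Parp9, which acts in a complex with Dtx3l, had 83.3, 66.8 and 94.5 CPM in CD61High and 90.9, 74.2 and 113 CPM in CD61Low. Parp9 was lower in each mouse, at a log2 fold change of -0.18 (SE 0.22, edgeR adjusted p = 0.939), and shares 9.40% of its exon bases with Dtx3l.

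**Figure D3:**
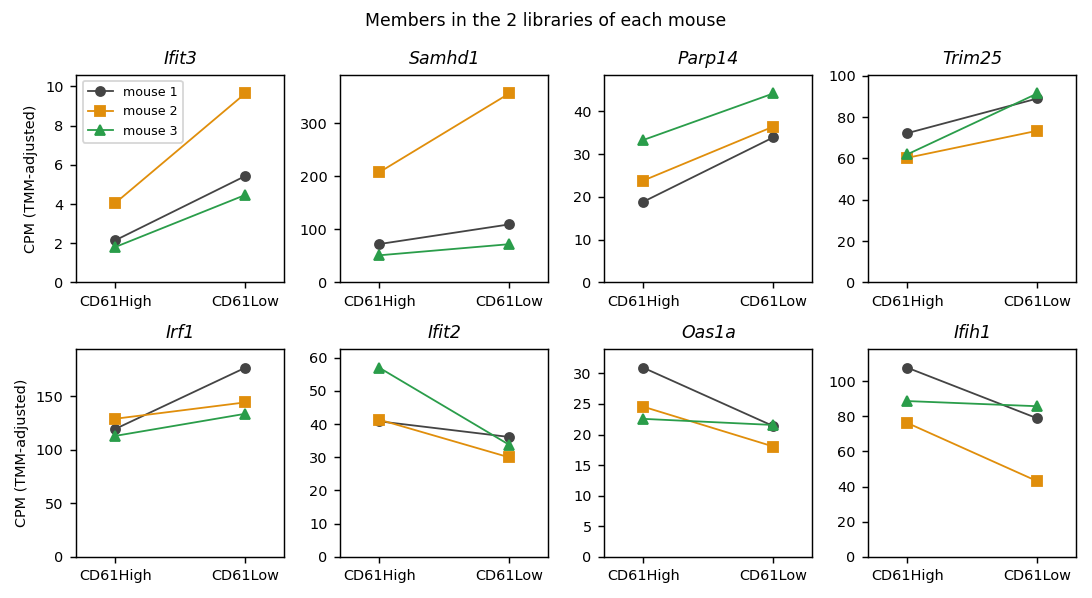
TMM-adjusted CPM of 8 members (Ifit3, Samhd1, Parp14, Trim25, Irf1, Ifit2, Oas1a and Ifih1) in the CD61High and CD61Low library of each mouse, with a line joining the libraries of a mouse and the axis from 0. The lines of the first 5 genes go up toward CD61Low in all 3 mice, those of Ifit2, Oas1a and Ifih1 go down, and mouse 2 stands far above the others for Samhd1.

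The Oas genes make or resemble synthases of an oligoadenylate second messenger made in response to double-stranded RNA. Oasl2 had 98.7, 69.7 and 90.6 CPM in CD61High and 126, 82.1 and 126 CPM in CD61Low. It was lower in each mouse with overlapping groups, at a log2 fold change of -0.37 (SE 0.23, edgeR adjusted p = 0.843). Oas3 was also lower in each mouse, by 0.12 to 0.25 on the log2 scale, and had 36.9, 60.4 and 39.6 CPM in CD61High and 43.9, 65.8 and 47.2 CPM in CD61Low.

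Oas1a had 30.9, 24.6 and 22.6 CPM in CD61High and 21.4, 18.0 and 21.6 CPM in CD61Low. CD61High lay above CD61Low without overlap, and the log2 fold change was 0.36 (SE 0.20, edgeR adjusted p = 0.815). Because 57.6% of the distinct 50-base stretches of its transcripts also occur in Oas1g, the level of Oas1a itself is uncertain. Oas2 was low, at 1.80, 2.52 and 0.479 CPM in CD61High and 0.583, 5.04 and 0.558 CPM in CD61Low. Its direction differed between mice, and the estimate of -0.36 (SE 1.07, edgeR adjusted p = 0.954) turned to 0.083 with the block.

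The Mx genes encode dynamin-like antiviral GTPases, and many laboratory strains, C57BL/6 among them, carry defective alleles. Mx2 (ENSMUSG00000023341.15, chromosome 16, 97535308 to 97560900), annotated by GENCODE as a polymorphic pseudogene, had 2, 3 and 15 counts in CD61High and 46, 26 and 28 counts in CD61Low. It separated the groups at a log2 fold change of -2.34 (SE 0.76, edgeR adjusted p = 0.683), at the lowest level per length of all members. DESeq2 with the block gave it no adjusted p. Mx1 had 0, 35 and 12 counts in CD61High and 32, 77 and 0 counts in CD61Low. A count of 0 allows up to 0.129 CPM in CD61High of mouse 1 and 0.112 CPM in CD61Low of mouse 3. Mx1 was lower in CD61High of mice 1 and 2 and higher in mouse 3.

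Rsad2, which encodes viperin, had 53.7, 138 and 38.6 CPM in CD61High and 60.5, 294 and 45.4 CPM in CD61Low. It was lower in each mouse, by 0.17, 1.09 and 0.23 on the log2 scale in mice 1, 2 and 3. The edgeR estimate was -0.80 (SE 0.85, adjusted p = 0.935), and 0.54 without the CD61Low library of mouse 2, which leaves its CD61High library unmatched. With the block it was -0.50 (SE 0.21, edgeR adjusted p = 0.241), and -0.22 with the block and without both libraries of mouse 2. Isg15, the ubiquitin-like modifier, had 10.5, 20.2 and 7.45 CPM in CD61High and 11.2, 37.0 and 9.26 CPM in CD61Low. As for Rsad2, mouse 2 held both the highest levels and the largest difference (-0.87). The unblocked log2 fold change of -0.59 (SE 0.66, edgeR adjusted p = 0.937) turned to 0.32 without the CD61Low library of mouse 2. With the block it was -0.43 (SE 0.23, edgeR adjusted p = 0.329), and -0.22 with the block and without both libraries of mouse 2.

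Ifi27l2a had 2.96, 21.7 and 1.18 CPM in CD61High and 7.54, 50.2 and 0.558 CPM in CD61Low. CD61High was lower in mice 1 and 2 and higher in mouse 3, and mouse 2 set the scale. The log2 fold change was -1.17 (SE 1.64, edgeR adjusted p = 0.940), and 1.09 without the CD61Low library of mouse 2, which leaves its CD61High library unmatched. With the block it was -0.73 (SE 0.47, edgeR adjusted p = 0.425), and -0.32 with the block and without both libraries of mouse 2. Its neighbour Ifi27, which encodes a small mitochondrial protein, was lower in each mouse, at 44.9, 73.8 and 40.5 CPM in CD61High and 49.4, 91.2 and 48.3 CPM in CD61Low. The estimate for Ifi27 was -0.25 (SE 0.36, edgeR adjusted p = 0.940), and 0.12 without the CD61Low library of mouse 2. With the block it was -0.23 (SE 0.13, edgeR adjusted p = 0.359), and -0.21 with the block and without both libraries of mouse 2.

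Of the remaining 5 effectors, Xaf1 was slightly higher in CD61High of each mouse, and the direction of the other 4 differed between mice. Ifi44 had 60.5, 34.0 and 37.0 CPM in CD61High and 87.7, 21.9 and 71.2 CPM in CD61Low, lower in mice 1 and 3 and higher in mouse 2. Rtp4 had 72.2, 38.6 and 57.7 CPM in CD61High and 67.7, 51.8 and 90.1 CPM in CD61Low, and Bst2 had 76.1, 49.98 and 63.3 CPM in CD61High and 68.6, 63.6 and 74.0 CPM in CD61Low. Rtp4 and Bst2 were higher in mouse 1 and lower in mice 2 and 3. Xaf1, a partner of the apoptosis inhibitor Xiap, had 25.5, 21.8 and 21.6 CPM in CD61High and 23.6, 21.6 and 20.4 CPM in CD61Low, higher in each mouse by at most 0.11 on the log2 scale. Ifi35 had 35.7, 31.0 and 30.2 CPM in CD61High and 28.3, 32.1 and 30.0 CPM in CD61Low, with a log2 fold change of 0.10 (SE 0.16, edgeR adjusted p = 0.940). Rtp4 shares 13.9% of its exon bases with Gm45338 and Ifi35 shares 16.8% with Gm11626, and without strand their reads cannot be told apart.

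The guanylate-binding proteins are GTPases that attack the vacuoles of intracellular pathogens and respond mainly to type II interferon, and the 3 members lie together on chromosome 3 between 142530342 and 142638008. Gbp2 had 107, 72.8 and 94.5 CPM in CD61High and 129, 79.4 and 144 CPM in CD61Low. It was lower in each mouse, with a log2 fold change of -0.36 (SE 0.27, edgeR adjusted p = 0.881). Gbp3 had 45.0, 40.0 and 53.9 CPM in CD61High and 58.5, 41.1 and 66.4 CPM in CD61Low, also lower in each mouse, at -0.26 (SE 0.23, edgeR adjusted p = 0.917). Gbp7 had 128, 92.3 and 169 CPM in CD61High and 161, 85.3 and 171 CPM in CD61Low, lower in mice 1 and 3 and higher in mouse 2. Its log2 fold change of -0.10 (SE 0.34, edgeR adjusted p = 0.963) turned to 0.098 without the CD61High library of mouse 2. For all 3 genes both libraries of mouse 2 were the lowest of their group, the reverse of Samhd1 and Rsad2.

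The ligands and receptors give the setting of these genes. Of 17 interferon genes listed, 2 had any count and 0 passed the filter on low counts. Ifnb1 had 6, 2 and 1 counts in CD61High of mice 1, 2 and 3, and 1, 0 and 0 counts in CD61Low, and Ifng had 0, 0 and 0 counts in CD61High and 0, 2 and 3 counts in CD61Low. With at most 6 counts in a library, these genes were not tested. Of 11 receptor, kinase and Stat genes, edgeR called 0 with or without the block, and DESeq2 with the block called 2 (18.2%) as lower in CD61High, Ifngr1 and Ifngr2, beside 7.11% of all genes called as lower. Ifngr2, a chain of the type II receptor, had 30.9, 73.8 and 20.9 CPM in CD61High and 48.8, 131 and 36.2 CPM in CD61Low, lower in each mouse. The blocked log2 fold change was -0.76 (SE 0.13, edgeR adjusted p = 0.0648), and -0.78 (SE 0.66, adjusted p = 0.902) without it. Ifngr1 had a blocked log2 fold change of -0.39 (SE 0.12, edgeR adjusted p = 0.156), and Ifnlr1, the type III receptor chain, one of -0.85 (SE 0.27, adjusted p = 0.157).

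Of the type I receptor chains, Ifnar1 had 109, 97.9 and 95.3 CPM in CD61High and 127, 90.7 and 117 CPM in CD61Low, and Ifnar2 had 71.9, 92.9 and 63.2 CPM in CD61High and 72.0, 114 and 72.5 CPM in CD61Low. In edgeR without the block, the log2 fold changes were -0.15 (SE 0.17) for Ifnar1, -0.18 (SE 0.25) for Ifnar2, -0.17 (SE 0.17) for Jak1 and 0.11 (SE 0.20) for Tyk2, with adjusted p of 0.932 to 0.940. Groups overlapped for each of these 4 genes.

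Of 7 other Irf genes, 8 brakes, 21 tested sensors and adaptors and 58 tested further interferon-stimulated genes, edgeR called 0 with or without the block. DESeq2 with the block called 1 Irf gene as lower, 1 brake as lower, 3 sensors and adaptors as lower and 1 as higher, and 8 further interferon-stimulated genes as lower and 2 as higher. These calls make up 14.3%, 12.5%, 19.0% and 17.2% of the 4 lists, beside 10.0% of all genes, 7.11% lower and 2.92% higher. Irf8, which directs monocyte and dendritic cell fate, had 17.4, 145 and 3.47 CPM in CD61High and 65.8, 276 and 11.7 CPM in CD61Low, highest in mouse 2 and lowest in mouse 3, as the neutrophil markers were. For Irf8 the blocked log2 fold change was -1.52 (SE 0.22, edgeR adjusted p = 0.0512), and without mouse 2 it was called there (-1.86, adjusted p = 0.0196). Irf5 and Irf4 had blocked log2 fold changes of -0.51 and -1.27, at edgeR adjusted p of 0.171 and 0.210.

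Socs3, a feedback inhibitor of Jak kinases, separated the groups, with 28.1, 44.8 and 35.9 CPM in CD61High and 74.0, 74.7 and 124 CPM in CD61Low. The edgeR log2 fold change was -1.33 (SE 0.29, adjusted p = 0.652), or -1.31 (SE 0.22, adjusted p = 0.0620) with the block. Socs3 was called by DESeq2 without the block (adjusted p = 0.0107) and with it (9.36e-06), and by edgeR with the block when mouse 2 was left out (-1.61, adjusted p = 0.0189). Socs1, the main brake on interferon receptors, was at -0.34 with the block (edgeR adjusted p = 0.361), and the phosphatase gene Ptpn11 at -0.40 (adjusted p = 0.279). Cgas, the sensor of cytosolic DNA, had 20.8, 23.9 and 34.3 CPM in CD61High and 12.1, 18.6 and 12.5 CPM in CD61Low, higher in each mouse without overlap. Cgas had a blocked log2 fold change of 0.87 (SE 0.25, edgeR adjusted p = 0.129), and Nod1 one of -0.53 (adjusted p = 0.113). Among the further interferon-stimulated genes, Lgals9, which encodes galectin-9, had 629, 643 and 614 CPM in CD61High and 299, 405 and 262 CPM in CD61Low. It was at 0.99 (SE 0.16, edgeR adjusted p = 0.0605) with the block, while Shisa5 was at -0.56 (SE 0.13, adjusted p = 0.0920) and Ms4a4b at -1.53 (SE 0.34, adjusted p = 0.0847). Without mouse 2, edgeR with the block called Lgals9, Shisa5 and Ms4a4b (adjusted p = 0.0198, 0.0454 and 0.0407), and DESeq2 called Lgals9 without the block as well (adjusted p = 0.0188).

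Most markers of mature cells were lower in CD61High, as most members were, with exceptions such as Nkg7, Epor and Car2. All 20 neutrophil markers and all 12 monocyte markers were lower in CD61High in each mouse. As a share of counts, the neutrophil markers summed to 0.0374% to 7.44% in CD61High and to 0.194% to 12.1% in CD61Low, and the monocyte markers 0.0405% to 0.904% in CD61High and 0.0572% to 1.42% in CD61Low. The 14 B cell markers took 0.00580% to 0.438% in CD61High and 0.00735% to 0.562% in CD61Low. The erythroid markers took 0.42%, 1.77% and 0.33% in CD61High of mice 1, 2 and 3, and 0.55%, 3.04% and 0.31% in CD61Low. Stem cell markers were also lower in CD61High of mice 1 and 3 (0.48% against 0.64%, and 0.49% against 0.68%). In mouse 2 they were higher in CD61High (0.23% against 0.15%). The 10 markers of plasmacytoid dendritic cells, which make large amounts of type I interferon, took 0.00312% to 0.0164% in CD61High and 0.00362% to 0.0284% in CD61Low, and Siglech and Ccr9 were at 0 in both libraries of mouse 3. In CD61High the neutrophil share was 7.44% in mouse 2 and 0.0374% in mouse 3, and the summed member share, without TMM, was 0.164% in mouse 2 and 0.173% in mouse 3. In TMM-adjusted CPM the member sums were 1771 in mouse 2 and 1596 in mouse 3. In both groups these sums were highest in mouse 2 and lowest in mouse 3, as the neutrophil share was.

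Both libraries of mouse 2 lay above the other 4 for 10 members (28.6%), against 24.2% of all genes tested, and below them for 9 (25.7%), against 26.3%. The 10 above were Irf7, Usp18, Isg15, Mx1, Oas2, Oas3, Rsad2, Ifi27, Ifi27l2a and Samhd1, and the 9 below were Ifih1, Ddx58, Oasl2, Ifi44, Parp9, Rtp4, Gbp2, Gbp3 and Gbp7. Without mouse 2, edgeR called 0 members and 0.855% of all genes, or 0 members and 4.77% of all genes with the block. In that blocked fit, 13 of the 35 members were lower in CD61High at an unadjusted p under 0.05, against 14.7% of all genes. At the same threshold 0 of the 35 were higher, against 11.6% of all genes. In mouse 3, where the neutrophil share was lowest, 28 of the 35 members were lower in CD61High at a median of -0.26. The neutrophil markers differed most between the groups in that mouse, at a median log2 difference of -2.57, against -2.07 in mouse 1 and -0.85 in mouse 2. The part of mature cells in the members' differences was not tested.

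**Figure D4:**
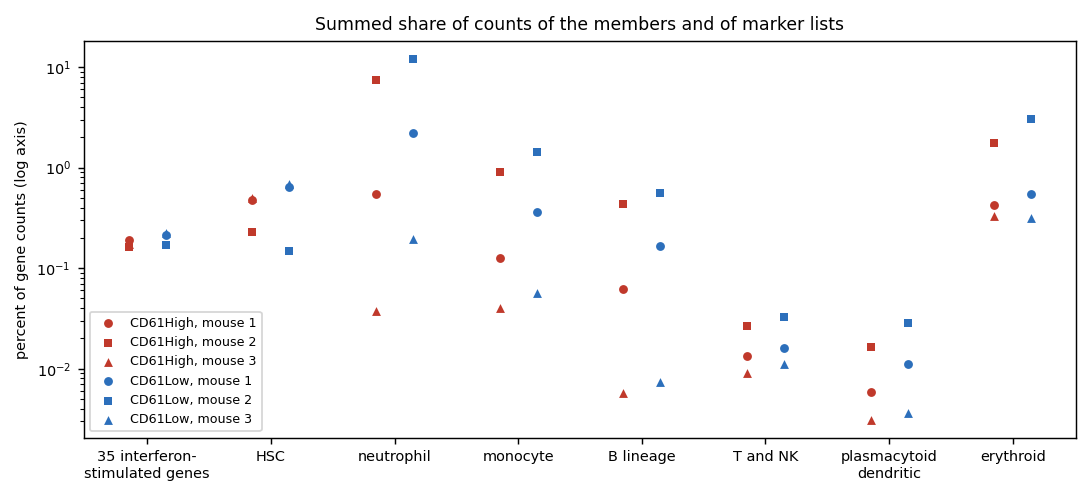
Summed percent of gene counts, on a log axis, taken by the 35 members and by marker lists of mature cells and of stem cells in each library, CD61High beside CD61Low. As shares of counts without TMM, the members lie between 0.164% and 0.221% in the 6 libraries, and the neutrophil markers run from 0.0374% to 12.1%.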

How the data were processed

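The authors deposited raw read counts, as a STAR gene count table for each library and a series table in which the smallest summed count is 31 and 0 values differ from the library tables. The submitters' processing notes name STAR 2.7, edgeR and MultiQC, and the genome build is not given in the sources used here. All 55450 identifiers match GENCODE M21 on GRCm38, which supplied symbols, coordinates and exon lengths. The unstranded counts were used, since 49.9% to 50.0% of stranded counts fell on the first strand in each library. Per the labels' protocols, RNA was isolated with the RNeasy Plus Micro kit, cDNA was made from 4 ng of RNA with SMART-Seq v4 and libraries from 1 ng of cDNA with Nextera XT, and no molecular identifiers are mentioned, so floors cover counting error only. Lines that name no gene stayed out, namely ambiguous reads (3.55% to 4.37% of a library), those in no gene (2.88% to 4.21%), multimapping ones (10.0% to 15.6%) and unmapped ones (4.36% to 10.9%).

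The test was the robust quasi-likelihood F-test of edgeR 4.0.16 (R 4.3.3) with TMM factors and filterByExpr by group, two-sided, with p-values adjusted by Benjamini-Hochberg across the 15610 genes that passed and calls at an adjusted p under 0.05. The code was tested on simulated data. The main design had no mouse term, because no source states that the authors' test had one. Since the titles pair the libraries by mouse, its standard errors and adjusted p also take in the spread between mice. Values given without naming the block or another method are from that design. The fit with the mouse as a block, DESeq2 1.42.0, limma voom 3.58.1, other scalings and filters and left-out libraries were alternatives. Titles name the same mouse for both libraries of a number, and deviations from the group means correlated at 0.236, 0.806 and 0.761 within mice 1, 2 and 3, against -0.823 to 0.374 between mice. Standard errors come from the F statistic. Levels are in TMM-adjusted CPM, and differences within a mouse use log2 CPM with a prior count of 2. If the titles' mice were pools, p-values measure the spread between those samples.

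The members and lists were chosen with earlier results of these data known, and 255 of 257 listed symbols matched. Every member is accounted for. Those given most room are, per class, the ones with the highest mean CPM and the ones with the largest change of 1 sign in 3 mice; Ifit2, Oas1a, Parp14 and members outside that rule were chosen after their values were seen. Of the other pathway lists, the 3 with the smallest unadjusted p in the blocked fit and 7 fixed genes are named, except some that are not reported here. Promoter sequences are from RefSeq on GRCm38.p6, where 24 of 35 members matched.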

Additional observations from a re-analysis of the deposited data

How the results depend on the processing

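Over all genes, the count of called genes was 0 without a mouse term. With the replicate block it was 40, with relative log expression factors and the block 88, with DESeq2 237, with DESeq2 and the block 1566, and with limma voom and the block 333. Leaving out libraries or mice gave 0 to 742 genes. The count of called members was 0, but 3 with DESeq2 and the block, and 0 in every fit that left out a library or mouse. The median log2 fold change of the members was -0.23 with library totals only and -0.27 among genes with a mean of at least 5 CPM, where the members below that level were not tested. Leaving out libraries or mice moved it between -0.40 and -0.19, and the class medians between -0.34 and -0.14 (regulators), -0.31 and -0.048 (sensors), -0.52 and 0.032 (effectors) and -0.43 and -0.14 (GBPs). Of 765 single-gene values under alternatives, 730 kept direction and call, 3 gained a call with DESeq2 and the block, and 32 changed sign. Outside left-out libraries, the sign changed for Oas2, to 0.083 with the block in edgeR, 0.060 with relative log expression factors and the block, 0.079 with DESeq2 and the block, and 0.21 with limma voom. With libraries left out, values ranged from -0.50 to 0.28 for Irf7, -0.072 to 0.25 for Usp18, -0.24 to 0.057 for Dhx58, -1.09 to 0.32 for Isg15, -2.84 to 0.30 for Mx1, -0.85 to 1.48 for Oas2, -0.45 to 0.0025 for Oas3, -1.53 to 0.54 for Rsad2, -0.30 to 0.021 for Bst2, -0.56 to 0.12 for Ifi27, -3.23 to 1.09 for Ifi27l2a, -0.021 to 0.16 for Ifi35, -0.86 to 0.033 for Ifi44, -0.033 to 0.12 for Xaf1, -1.54 to 0.28 for Samhd1 and -0.36 to 0.098 for Gbp7. For the 19 members that kept their sign, the size still moved, over -0.44 to -0.20 for Irf1, -0.34 to -0.14 for Irf9, -0.51 to -0.24 for Stat2, 0.14 to 0.63 for Ifih1, -0.39 to -0.048 for Ddx58, -0.45 to -0.15 for Zbp1, -0.49 to -0.30 for Trim25, -0.70 to -0.17 for Ifit1, 0.30 to 0.62 for Ifit2, -1.72 to -0.89 for Ifit3, -2.03 to -0.96 for Ifit3b, -3.72 to -1.77 for Mx2, 0.19 to 0.48 for Oas1a, -0.54 to -0.23 for Oasl2, -0.32 to -0.054 for Parp9, -0.84 to -0.45 for Parp14, -0.58 to -0.11 for Rtp4, -0.57 to -0.20 for Gbp2 and -0.43 to -0.14 for Gbp3. The cause of these changes was not tested. The mouse block changed no call of a member in edgeR. In fits that leave a group with 2 libraries, the spread is pooled over genes and groups. Where a single library was left out, no block was used, so the other library of that mouse stayed in unmatched. At the lowest counts, those of Mx1, Mx2, Oas2 and Ifit3b, depth limits what can be seen.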

Other observations

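Of the other guanylate-binding proteins, Gbp4, Gbp5, Gbp6, Gbp8 and Gbp9, chosen after their values were seen, were lower in CD61High of each mouse. Gbp10, also in the series table, is not reported here. Gbp4 had 5.24, 5.05 and 7.30 CPM in CD61High of mice 1, 2 and 3, and 18.7, 7.46 and 12.9 CPM in CD61Low. All CD61High values lay below all CD61Low values, at a log2 fold change of -1.15 (SE 0.40, edgeR adjusted p = 0.715). Gbp9 had 10.9, 12.2 and 11.1 CPM in CD61High and 32.5, 14.8 and 25.5 CPM in CD61Low, also without overlap, at -1.09 (SE 0.32, edgeR adjusted p = 0.676). Of all genes tested, 5.71% likewise had CD61High below without overlap in TMM-adjusted CPM. Gbp5, Gbp6 and Gbp8 were at -0.61, -1.07 and -0.83 (edgeR adjusted p = 0.877, 0.786 and 0.758), lower in 3 of 3 mice. DESeq2 with the mouse as a block called Gbp4, Gbp5 and Gbp9 (adjusted p = 0.0314, 0.0346 and 0.0165), beside 10.0% of all genes tested in either direction and 7.11% lower. The members Gbp2, Gbp3 and Gbp7, at -0.36, -0.26 and -0.10, had smaller estimates, and the difference between these genes was not tested.

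Cd274, an interferon-responsive immune checkpoint ligand, had 31.3, 26.9 and 32.0 CPM in CD61High and 73.2, 27.1 and 78.3 CPM in CD61Low. The difference was large in mice 1 and 3 and near 0 in mouse 2, with a blocked log2 fold change of -0.85 (SE 0.28, edgeR adjusted p = 0.173).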
